A study of Mus musculus with 18 samples.

Results

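The ubiquitin-specific proteases, encoded by the Usp genes, are the largest family of deubiquitinating enzymes. They remove ubiquitin from proteins that ubiquitin ligases have tagged, and so can spare a protein from the proteasome, change its traffic through endosomes or reset a signal. A microRNA (miRNA) guides an Argonaute protein to a transcript, mostly by pairing of its seed, bases 2 to 8, and this generally lowers the protein made from that transcript. The data described here show which miRNAs were ligated to Usp transcripts in cultured mouse keratinocytes, the epithelial cells of the epidermis.

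The genes were taken by symbol: every protein-coding mouse gene of the RefSeq table (GRCm38.p6, the build also called mm10) whose symbol starts with Usp and a number. There were 56 such genes of 21900 protein-coding genes. A chimeric read, in which a miRNA is joined to a piece of its target RNA, was assigned to a gene when the middle of its target part lay within that gene and within no other protein-coding gene. By this rule 4754 of 1153545 chimeric reads (0.412%) lay in Usp genes, and 47 of the 56 genes had at least 1 read. One of the genes, Usp6nl, meets the symbol rule, but its product acts on Rab GTPases and is no ubiquitin-specific protease.

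The reads come from CLEAR-CLIP, which crosslinks cells with UV light, precipitates Argonaute 2 and ligates each miRNA to the RNA it is bound to. Set 1 held 6 libraries of control keratinocytes labelled K14-Cre only (Cre recombinase under the keratin 14 promoter of basal keratinocytes) and 3 libraries of miR-200 double knockout (DKO) keratinocytes. Set 2 held 3 libraries of keratinocytes with inducible miR-200 that were not induced, 3 libraries of DKO keratinocytes and 3 libraries of inducible keratinocytes after 24 hours of doxycycline at 3 ug/ml. The labels name neither the deleted loci nor the inducible construct, and no group is doxycycline-treated without it, so that drug and induction cannot be told apart. The libraries of a group were merged in the deposited data, so each group is 1 pool, no spread between libraries can be had, and no test between groups was made. Both set 2 comparisons use the same uninduced pool.

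Unless a sentence names them, values for the 5 pools stand in 1 order: first control and DKO of set 1, then uninduced, DKO and induced of set 2. The pools held 161692, 48662, 314071, 210003 and 419117 reads, and Usp genes took 681, 202, 1277, 920 and 1674 of them. Intervals are 95% and cover counting error only, since merged reads are not independent libraries. Of the cell type markers, 6 of 6 keratinocyte genes had reads, at a summed 0.190 to 0.395% of a pool. Reads were found on 1 of 4 fibroblast markers, at 0 to 0.00318%, with Col1a1, Col1a2 and Col3a1 at 0. They were found on 1 of 3 melanocyte markers (0 to 0.00247%, with Dct and Tyrp1 at 0), 0 of 3 immune markers and 2 of 3 endothelial markers (0.00143 to 0.00371%, with Cdh5 at 0). A count of 0 in a pool allows up to 3 reads, which is 0.00186, 0.00616, 0.000955, 0.00143 and 0.000716% of the pools. Reads counted per gene depend on how much of the transcript a cell holds as well as on how much of it is bound, and these cannot be told apart here.

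The miRNAs that the results below turn on are given with their mature RefSeq sequences (GRCm38.p6), 5′ to 3′, with the seed in capitals. The first led the Usp reads summed over the 5 pools and the chief Usp25 and Usp19 sites.
miR-31-5p: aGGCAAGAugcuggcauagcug
The deleted family falls into 2 seed groups. The first group led sites in Usp25, Usp6nl, Usp45 and Usp8, and the other led a site in Usp14.
miR-200b-3p: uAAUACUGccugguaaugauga
miR-200c-3p: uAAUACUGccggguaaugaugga
miR-429-3p: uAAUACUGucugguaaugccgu
miR-200a-3p: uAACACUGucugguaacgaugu
miR-141-3p: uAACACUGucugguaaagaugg
The following led other sites among the 15 deepest, in Usp25 (miR-26 and miR-27), Usp10 (miR-23a), Usp47 (miR-125), Usp9x (miR-92a and miR-25) and Usp3 (miR-3473b and miR-3473d).
miR-26a-5p: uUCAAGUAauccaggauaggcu
miR-26b-5p: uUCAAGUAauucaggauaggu
miR-27a-3p: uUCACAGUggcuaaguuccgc
miR-27b-3p: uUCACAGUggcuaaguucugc
miR-23a-3p: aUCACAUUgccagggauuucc
miR-125b-5p: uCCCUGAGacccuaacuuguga
miR-125a-5p: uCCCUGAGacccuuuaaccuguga
miR-92a-3p: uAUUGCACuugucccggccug
miR-25-3p: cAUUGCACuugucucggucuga
miR-3473b: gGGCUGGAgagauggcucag
miR-3473d: cCACUGAGccacuuuccagcccuu
Of the 270 miRNA names found on Usp genes, 204 had a RefSeq sequence here, and these carried 87.0% of the Usp reads. miR-23b-3p and miR-297a-5p are named without a sequence. In counts by seed, each name without a sequence was taken as a seed of its own, so miR-23b-3p was counted apart from miR-23a-3p.

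Usp genes as a whole took close to the same share of every pool. The shares were 0.421% (0.390 to 0.454), 0.415% (0.360 to 0.476), 0.407% (0.385 to 0.429), 0.438% (0.410 to 0.467) and 0.399% (0.381 to 0.419), and all 5 intervals overlap. The ratio of DKO to control was 0.986 (0.838 to 1.15) in set 1 and 1.08 (0.989 to 1.17) in set 2, and that of induced to uninduced was 0.982 (0.913 to 1.06). All 3 intervals include 1, so a change of the whole group was not detectable at this depth, and differences inside these bounds remain possible. All protein-coding genes together stood at 0.971, 1.03 and 1.02 in the same comparisons.

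The miR-200 family was a different matter within these reads. On Usp genes it had 24, 0, 136, 4 and 215 reads. That is 3.52% (2.27 to 5.20) of the Usp reads in the set 1 control and 10.7% (9.01 to 12.5) in the uninduced control, against 0 of 202 reads (set 1) and 0.435% (0.119 to 1.11; set 2) in DKO cells. In the induced pool it was 12.8% (11.3 to 14.5). Family reads were thus almost absent from both DKO pools and present in the other 3. The set 2 DKO share was 0.0408 of control (0.0110 to 0.107), where other protein-coding genes stood at 0.0526. In set 1 the ratio was 0, with an upper bound of 0.560. All 4 family reads of the set 2 DKO pool had the same position, miRNA and barcode as a read of another set 2 pool, and without such reads 0 remained against 128 in the control.

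**Figure D1:**
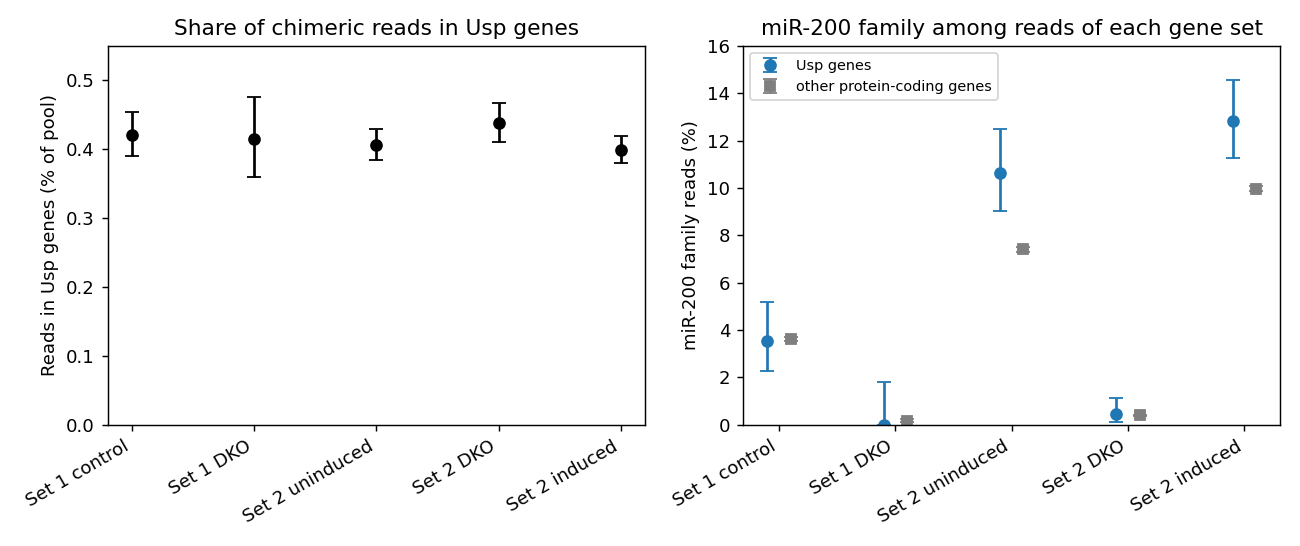
Left, reads in Usp genes as a percentage of all chimeric reads in each of the 5 pools. Right, miR-200 family reads as a percentage of the reads in Usp genes (circles) and in other protein-coding genes (squares). Bars are 95% intervals for counting error. The Usp share lies between 0.399 and 0.438% in every pool, while the family share of Usp reads is 10.7% and 12.8% in the uninduced and induced pools and at most 0.435% in the DKO pools.

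In the set 2 control and the induced pool the family took a larger part of Usp reads than of reads in other protein-coding genes, which were at 7.41% and 9.97%. In the set 1 control the values were 3.52% and 3.62%. Without Usp25 the Usp values of the uninduced and induced pools were 8.88% (7.27 to 10.7) and 11.2% (9.64 to 12.9), closer to those of other genes. On induction the family share of Usp reads was 1.21 times that of the uninduced pool (0.968 to 1.51), beside 1.35 in other protein-coding genes. The members did not move alike. miR-200b-3p had 23 reads on Usp genes without induction and 70 with it (ratio of shares 2.32, 1.43 to 3.90), and miR-429-3p had 12 and 32 (2.03, 1.02 to 4.34). miR-200a-3p, from the same gene cluster, had 5 and 14 (2.14, 0.727 to 7.58). The members of the other cluster had nearly equal reads in the deeper induced pool, with 52 and 52 for miR-200c-3p (0.763, 0.509 to 1.14) and 44 and 46 for miR-141-3p (0.798, 0.516 to 1.23).

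miR-200 reads reached 35 Usp genes but were uneven among them. Usp25 had the most, with 1, 0, 38, 0 and 51 family reads. Usp14 had 2, 0, 13, 1 and 19, and Usp6nl had 0, 0, 6, 0 and 27. Most Usp6nl family reads were thus in the induced pool. Usp47 (1, 0, 8, 2 and 12), Usp9x (4, 0, 11, 0 and 5), Usp15 (0, 0, 4, 0 and 16), Usp45 (0, 0, 6, 0 and 12), Usp34 (2, 0, 8, 0 and 6) and Usp8 (0, 0, 1, 0 and 10) followed. Of these 9 genes, only Usp14 and Usp47 had a family read in a DKO pool.

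Reads were concentrated on few Usp genes. The leading 5 genes held 42.6% of the Usp reads, the leading 10 held 61.4% and the leading 20 by mean share held 83.2%. The median over all 56 genes was 46.5 reads, 36 genes had a read in every pool, and 6 of the 47 with reads had under 10 in all. No read was assigned to 9 genes: Usp26, Usp49, Usp51, the Y-linked Usp9y and the 5 genes Usp17la, Usp17lb, Usp17lc, Usp17ld and Usp17le. The Usp17-like genes are near-identical copies, where counting by position is uncertain, and every read in Usp49 also lay in another protein-coding gene. Genes were taken over their whole span, introns included, so a long gene can gather more reads.

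Usp25, an enzyme of innate immune signalling and of protein degradation at the endoplasmic reticulum, led the family. The gene lies on mm10 chromosome 16, 77013684 to 77116783, on the plus strand. It had 48, 36, 174, 127 and 211 reads, which is 0.0297, 0.0740, 0.0554, 0.0605 and 0.0503% of the pools. The set 1 control was lower than the other 4 pools. Usp25 alone held 12.5% of all Usp reads. Counting each combination of pool, position, strand and miRNA as 1 chimera, it had 48.1 chimeras per 10 kb of gene span.

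Usp34, which stabilises axin in Wnt signalling, came next with 58, 20, 115, 84 and 118 reads (0.0359, 0.0411, 0.0366, 0.0400 and 0.0282% of the pools). Its span of 187.4 kb is the longest of the leading genes, and at 19.9 chimeras per 10 kb it was less densely bound than Usp25. Usp6nl had 43, 15, 104, 62 and 160 reads, or 0.0266, 0.0308, 0.0331, 0.0295 and 0.0382%. The induced pool was highest, and all 5 intervals overlap. Usp47, which acts on DNA polymerase beta in base excision repair, had 36, 4, 138, 65 and 130 reads, or 0.0223, 0.00822, 0.0439, 0.0310 and 0.0310%. The set 2 uninduced control was highest and the set 1 DKO pool lowest.

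**Figure D2:**
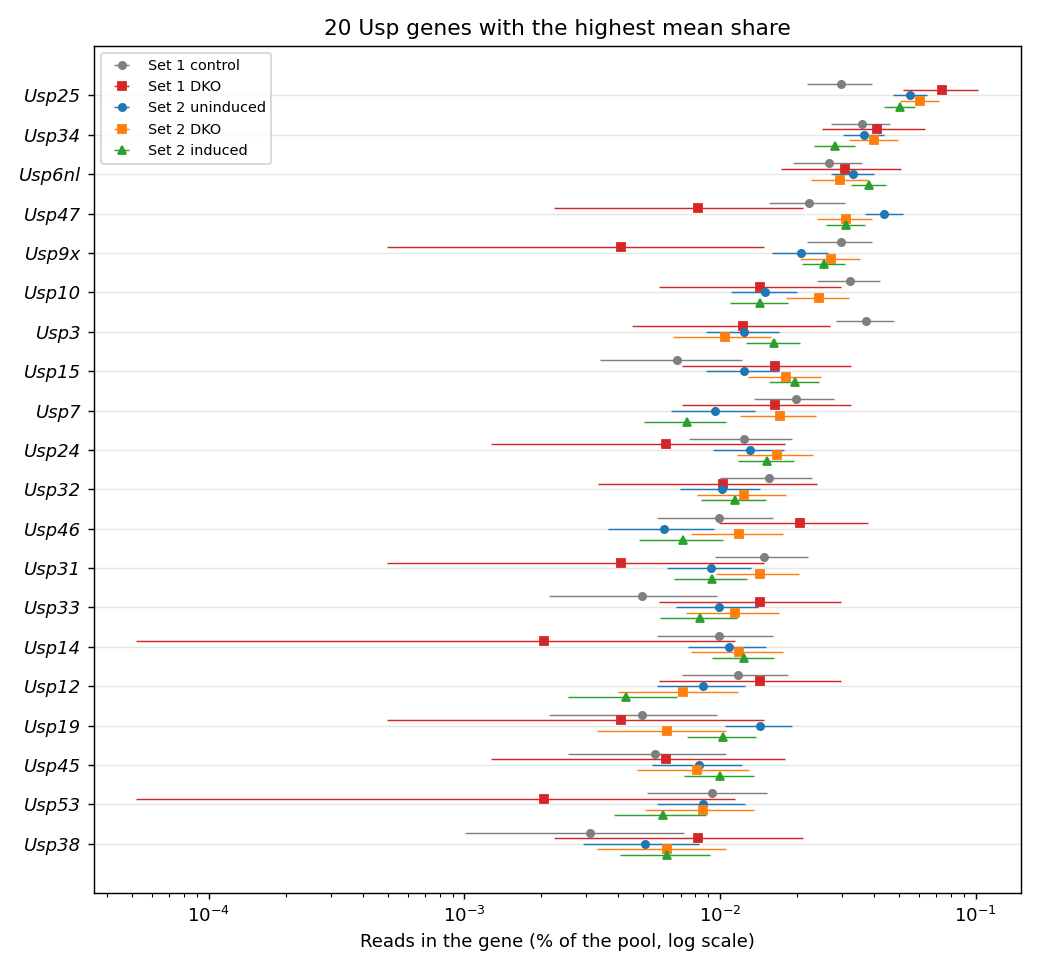
Reads in each of the 20 Usp genes with the highest mean share, as a percentage of all chimeric reads of the pool on a log scale, with 95% intervals for counting error; colours and symbols mark the 5 pools. Usp25 lies at 0.0297% in the set 1 control and between 0.0503 and 0.0740% in the other 4 pools, and the set 1 DKO intervals are the widest because that pool is the smallest.

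Among the genes tied to TGF-beta and Smad signalling, Usp9x had 48, 2, 65, 57 and 107 reads (0.0297, 0.00411, 0.0207, 0.0271 and 0.0255% of the pools). Only the set 1 DKO pool stood apart, on 2 reads. Usp15, which acts on the TGF-beta receptor complex, had 11, 8, 39, 38 and 82 reads, or 0.00680, 0.0164, 0.0124, 0.0181 and 0.0196%. It was lowest in the set 1 control. With Usp4 and Usp11, this group of 4 genes had 67, 12, 114, 106 and 212 reads. Its ratio was 0.595 (0.293 to 1.11) for DKO over control in set 1, 1.39 (1.06 to 1.83) in set 2 and 1.39 (1.10 to 1.77) for induced over uninduced. Both set 2 comparisons were thus higher than their shared uninduced pool, by the counting interval. Several such groups of genes were compared, and their intervals are not adjusted for the number of groups or comparisons.

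Histone and chromatin enzymes held 9 of the genes, 7 of them with reads. Usp3, which removes ubiquitin from histones, had 60, 6, 39, 22 and 68 reads (0.0371, 0.0123, 0.0124, 0.0105 and 0.0162% of the pools). The set 1 control stood above the other 4 pools. In that pool 26 of its 60 reads came from miR-3473b and 15 from miR-3473d. Usp7, known for acting on Mdm2 and Trp53, had 32, 8, 30, 36 and 31 reads (0.0198, 0.0164, 0.00955, 0.0171 and 0.00740%). The group together had 106, 23, 109, 67 and 135 reads, and its 3 ratios (0.721, 0.919 and 0.928) had intervals that include 1.

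Of the endosomal genes, Usp10, which also binds the stress granule protein G3bp1, had 52, 7, 47, 51 and 60 reads (0.0322, 0.0144, 0.0150, 0.0243 and 0.0143% of the pools). The set 1 control and the set 2 DKO pool were highest. Usp8, which works with the ESCRT machinery on internalised receptors, had 58 reads in all, and Usp2 had 16. The proteasome group was led by Usp14, which trims ubiquitin at the proteasome and had 16, 1, 34, 25 and 52 reads. Its shares were 0.00990, 0.00205, 0.0108, 0.0119 and 0.0124%, alike in all but the shallow set 1 DKO pool. Usp5, which takes apart free ubiquitin chains, had 36 reads in all, and Usp13 had 6.

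Usp19, anchored in the endoplasmic reticulum, was the most densely bound Usp gene. Its span on chromosome 9 (108490607 to 108502337) is 11.7 kb, and it had 75.0 chimeras per 10 kb. It had 8, 2, 45, 13 and 43 reads, or 0.00495, 0.00411, 0.0143, 0.00619 and 0.0103%. The uninduced and induced pools were high and both DKO pools and the set 1 control were low. In set 1 the ratio of DKO to control was 0.831 (0.0859 to 4.16), on 2 reads against 8, so no difference was detectable there. Usp33, in the same group, had 8, 7, 31, 24 and 35 reads. With Usp20 and Usp30 the group had 21, 16, 87, 43 and 96 reads, and its ratio was 2.53 (1.24 to 5.09) for DKO over control in set 1, 0.739 (0.501 to 1.08) in set 2 and 0.827 (0.612 to 1.12) on induction. Only the set 1 interval excludes 1. The partners of the activator UAF1 (Wdr48) had 39, 19, 51, 45 and 51 reads, with 16, 10, 19, 25 and 30 in Usp46, 19, 7, 27, 15 and 18 in Usp12 and 19 in all in Usp1. The ratios of this group, of the endosomal group and of the proteasome group had intervals that include 1 in all 3 comparisons. The endosomal group was counted with Usp6nl, which is no ubiquitin-specific protease and held 384 of its 675 reads.

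The remaining genes of the leading 20 were Usp24 (20, 3, 41, 35 and 64 reads), Usp32 (25, 5, 32, 26 and 48), Usp31 (24, 2, 29, 30 and 39), Usp45 (9, 3, 26, 17 and 42), Usp53 (15, 1, 27, 18 and 25) and Usp38 (5, 4, 16, 13 and 26). Usp45 acts on the repair nuclease subunit Ercc1. Usp53 has long been classed with Usp39 and Usp54 as lacking protease activity, and these 3 genes had 30, 7, 36, 37 and 46 reads. Usp18, which removes the interferon-induced modifier Isg15, had 1 read, in the induced pool.

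Summed over the 5 pools, miR-31-5p was the miRNA most often ligated to Usp transcripts. In the set 1 control miR-3470b had more reads (53 against 45), as had miR-27a-3p in the set 2 DKO pool (96 against 94). miR-31-5p made up 6.61, 8.91, 13.8, 10.2 and 12.4% of the Usp reads, against 4.47, 5.58, 12.1, 8.40 and 12.1% in other protein-coding genes. It was higher on Usp genes in each pool, although only in the set 1 control did the interval of the ratio exclude 1 (1.48, 1.08 to 1.98). Without Usp25 its shares were 4.42, 7.83, 13.4, 8.95 and 11.5%, so that the set 1 control and the induced pool then lay slightly below other genes. It reached 42 Usp genes. Among the 20 leading genes it had more reads than any other miRNA on Usp25, Usp6nl, Usp24, Usp33, Usp12 and Usp19. Its reads were most numerous on Usp25 (17, 5, 28, 23 and 39) and Usp19 (6, 2, 34, 6 and 28), of 540 Usp reads in all; Usp25 held 112 of these and Usp19 held 76.

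The next miRNAs also had preferred Usp genes. miR-27a-3p made up 3.08, 6.93, 4.46, 10.4 and 5.14% of Usp reads, highest in the set 2 DKO pool; Usp25 held 51 and Usp34 held 41 of its 274 Usp reads. miR-125b-5p made up 1.62, 0.495, 6.42, 2.93 and 5.50%. In the uninduced pool it was 1.34 times as frequent as in other protein-coding genes (1.06 to 1.66), and Usp47 held 74 of its 213 Usp reads. miR-23a-3p made up 3.38, 2.97, 4.07, 6.41 and 3.46%, and Usp10 held 67 of its 198 reads. miR-21a-5p made up 2.35, 4.95, 5.48, 4.35 and 5.02%, and in the set 2 DKO pool it was less frequent than in other protein-coding genes (ratio 0.668, 0.477 to 0.911).

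miR-205-5p, an epithelial miRNA, made up 3.67, 0.990, 2.58, 5.33 and 1.85% of Usp reads and miR-24-3p 1.17, 5.94, 1.10, 2.83 and 1.43%. In the set 1 DKO pool these shares rest on 2 and 12 reads. The last of the leading 10 were miR-3470b (7.78, 1.98, 0.548, 0.870 and 0.717%), miR-706 (4.70, 4.95, 0.157, 0.870 and 0.657%) and miR-3473b (6.02, 1.98, 0.0783, 0.543 and 0.478%). These were high in set 1 alone. With miR-709, miR-3470a, miR-7667-5p and miR-1195 they form 7 miRNAs that made up 31.3 and 12.9% of the Usp reads of set 1 and 1.33 to 2.83% of those of set 2. In other protein-coding genes they made up 30.3 and 19.9% in set 1. Their part in the set 1 differences between pools was measured by leaving them out, as given beside the genes below. The 7 are not every miRNA high in set 1. miR-3473d (3.52, 1.49, 0.235, 0.109 and 0.179% of Usp reads) was not among them and was kept.

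Targets that overlap on 1 strand were joined over the 5 pools into sites. The Usp genes had 2336 sites, of which 117 in 34 genes held at least 5 chimeras, 11 held at least 20 and 8 of the 117 had chimeras in every pool. In other protein-coding genes 20518 sites held at least 5 chimeras. Of these, 2539 held at least 20 and 2636 had chimeras in every pool, both larger parts than among the Usp sites. The 117 sites held 1343 of 4326 Usp chimeras (31.0%), beside 34.5% in other protein-coding genes. In 54 of them (46.2%) at least 80% of chimeras had 1 seed, beside 40.3% of such sites elsewhere. Names without a sequence were counted as separate seeds in both, which can make these values too low. The median share of the leading seed was 71.4% and 66.7%. Usp sites were therefore close to those of other genes in the part of chimeras they held and in their leading seeds. A smaller part of them spanned all pools, on 8 sites. A smaller part also held at least 20 chimeras, and sites were not matched for depth. The files give positions but no exons, so whether a site lies in a coding region or a 3′ untranslated region was not analysed here; distances are to the annotated end of the gene.

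Usp25 held 4 of the 5 leading sites, with 72.0% of its chimeras in 7 sites. The deepest (chromosome 16, 77115614 to 77115961, 822 bases from the gene end) had 15, 8, 38, 31 and 45 chimeras. miR-31-5p made 72 of these 137, with 12, 4, 18, 17 and 21 by pool, and 37 other miRNAs shared the rest. The second (77116188 to 77116402) had 6, 9, 27, 23 and 25 chimeras, with 27 of miR-26a-5p, 13 of miR-26b-5p and 18 of miR-297a-5p. A further one (77116456 to 77116562, 221 bases from the end) had 3, 2, 9, 16 and 11, of which 35 carried the seed of miR-27a-3p and miR-27b-3p. These 3 sites were seen in every pool. Between the first and the second lay a stretch (77115962 to 77116174) with 0, 6, 1, 1 and 13 chimeras of 13 miRNAs and no leader.

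The miR-200 site of Usp25 lay far from these, 41411 bases before the gene end (77075320 to 77075372, 53 bases long). It had 3, 1, 23, 0 and 29 chimeras. Of its 56 chimeras, 20 were of miR-200b-3p, 16 of miR-200c-3p and 16 of miR-429-3p, and these had 1, 0, 22, 0 and 29 by pool. The site was thus occupied by this seed in the uninduced and induced pools and by none of it in either DKO pool, where the ratio of shares in set 2 was 0 with an upper bound of 0.260. The remaining 4 chimeras were of let-7a-5p, let-7b-5p, let-7d-5p and miR-21a-5p. The induced share of the site's seed was 0.986 of the uninduced share (0.547 to 1.80). Relative to all chimeras with the same seed it was 0.661 (0.367 to 1.21). On that measure the set 2 DKO ratio was 0 with an upper bound of 4.25, since few chimeras of the seed remained in that pool.

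**Figure D3:**
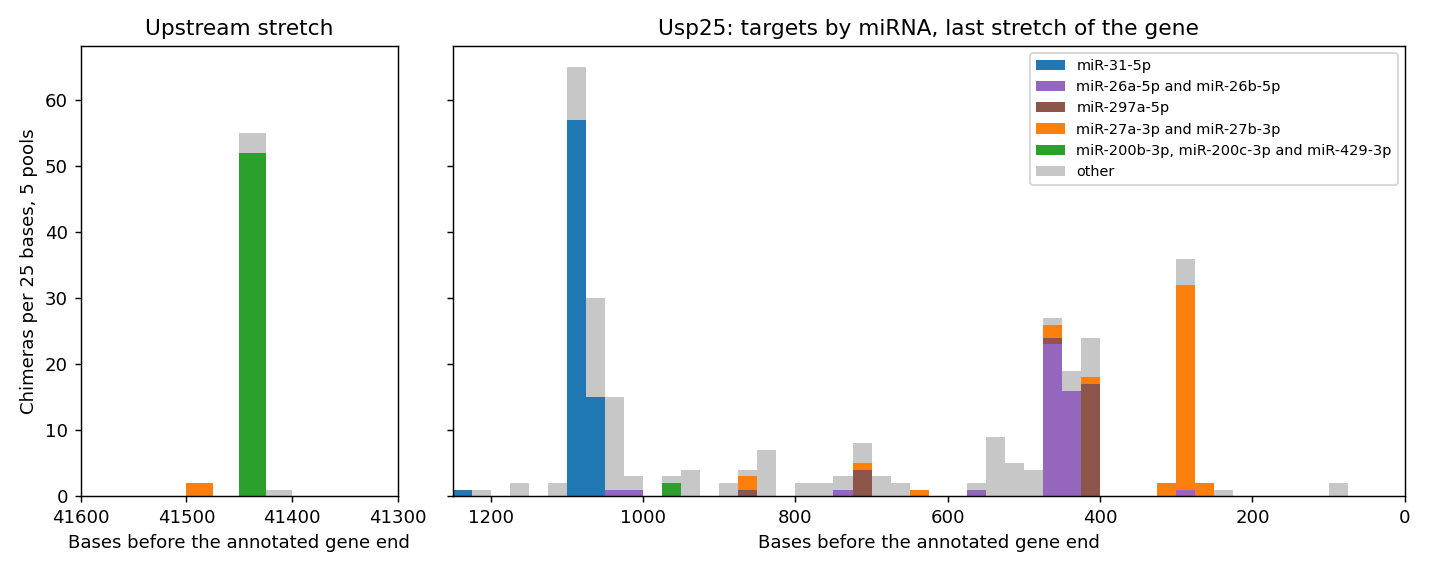
Distinct chimeras on Usp25 over the 5 pools in windows of 25 bases, by distance before the annotated gene end, coloured by miRNA; the left panel shows a stretch about 41 kb upstream and the right panel the last stretch of the gene. The miR-200b-3p, miR-200c-3p and miR-429-3p chimeras stand in the left panel, and miR-31-5p, miR-26 with miR-297a-5p, and miR-27 form separate peaks in the right panel.

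Over the Usp genes of at least 20 kb with known strand, 23.0% of sense chimeras lay within 5 kb of the gene end, beside 23.9% in other genes. In Usp25 it was 61.1% (303 of 496), and without Usp25 the value was 16.5%. Among the other genes with at least 20 such chimeras, the highest values were those of Usp36 (57.8%), Usp20 (56.0%, 14 of 25), Usp45 (53.8%) and Usp38 (49.2%). Usp30 had 62.5%, on 10 of 16 chimeras. By contrast Usp34 had 3 of 370 chimeras there, Usp24 had 0 of 152 and Usp15 had 1.20%. The gene ends are those of the annotation, and shorter transcript forms were not separated. By pool the Usp values were 12.9, 31.8, 24.6, 25.3 and 23.1%, lowest in the set 1 control, where other genes were also lowest at 15.5%.

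Other Usp sites were bound largely by 1 or a few miRNAs. In Usp10 a site on chromosome 8 (119938722 to 119938872) had 9, 1, 13, 12 and 15 chimeras, 32 of them of miR-23a-3p and 13 of miR-23b-3p. In Usp47 a site on chromosome 7 (112103969 to 112104068) had 2, 1, 18, 2 and 15, of which 31 were of miR-125b-5p and 3 of miR-125a-5p. This site was low in the set 2 DKO pool, where its leading seed had 1 chimera against 17. Its share of all chimeras of that pool was 0.0839 of control (0.00201 to 0.535). Relative to all chimeras with the same seed it went from 11.3 to 1.65 per 10000, a ratio of 0.146 (0.00349 to 0.931). A smaller Usp47 site (112092902 to 112092972) had 2, 0, 8, 2 and 3 chimeras, 9 of miR-125b-5p and 5 of miR-21a-5p.

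Usp19 had 3 sites of at least 5 chimeras, all led by miR-31-5p. The deepest (chromosome 9, 108496868 to 108496933) had 5, 0, 11, 1 and 12 chimeras, 27 of 29 of miR-31-5p, and the next (108500913 to 108500977) had 0, 0, 6, 1 and 9, 14 of 16 of miR-31-5p. The smallest (108500784 to 108500854) had 0, 0, 4, 1 and 2, all of miR-31-5p. Each had 1 chimera in the set 2 DKO pool and none in the set 1 DKO pool. The next and the smallest had none in the set 1 control either. For the deepest, the set 2 DKO share over control was 0.130 (0.00301 to 0.892), and relative to all miR-31-5p chimeras 0.170 (0.00395 to 1.17), an interval that includes 1. miR-31-5p itself made up less of the Usp reads in that pool (10.2% against 13.8%).

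The other family sites were smaller. In Usp14 a site had 2, 0, 12, 1 and 14 chimeras, with 15 of miR-141-3p and 6 of miR-200a-3p and none of these in a DKO pool. A Usp6nl site (chromosome 2, 6441745 to 6441893) had 1, 0, 4, 0 and 16 chimeras, of which 6 were of miR-200b-3p, 4 of miR-429-3p and 3 of miR-200c-3p. In Usp45 a site 270 bases from the gene end (chromosome 4, 21837509 to 21837602) had 0, 0, 4, 0 and 8 chimeras, and one in Usp8 (chromosome 2, 126742203 to 126742268) had 0, 0, 1, 0 and 7. In the latter 2 sites every chimera carried the miR-200b, miR-200c and miR-429 seed. None of the chimeras at the Usp6nl, Usp45 and Usp8 sites came from a DKO pool. These sites were chosen for their miR-200 chimeras, and few chimeras of their seed remained in the DKO pools. The seed had 36 chimeras in the set 1 DKO pool, and 11745, 504 and 23420 in the set 2 pools. Relative to all chimeras with that seed, the set 2 DKO ratios were 0, with upper bounds of 124, 35.3 and 909. The absence thus shows nothing particular to these sites.

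The last of the leading 15 sites were in Usp9x and Usp3. The Usp9x site (chromosome X, 13155998 to 13156123) had 3, 1, 2, 7 and 12 chimeras, with 9 of miR-92a-3p and 5 of miR-25-3p, which share a seed. In Usp3 one site (chromosome 9, 66574910 to 66575030) had 7, 2, 0, 1 and 7 chimeras, 13 of 17 of miR-3473b. Another (66580640 to 66580688) had 11, 1, 2, 0 and 2, all of miR-3473d. These Usp3 sites lie 60271 and 66001 bases before the gene end.

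**Figure D4:**
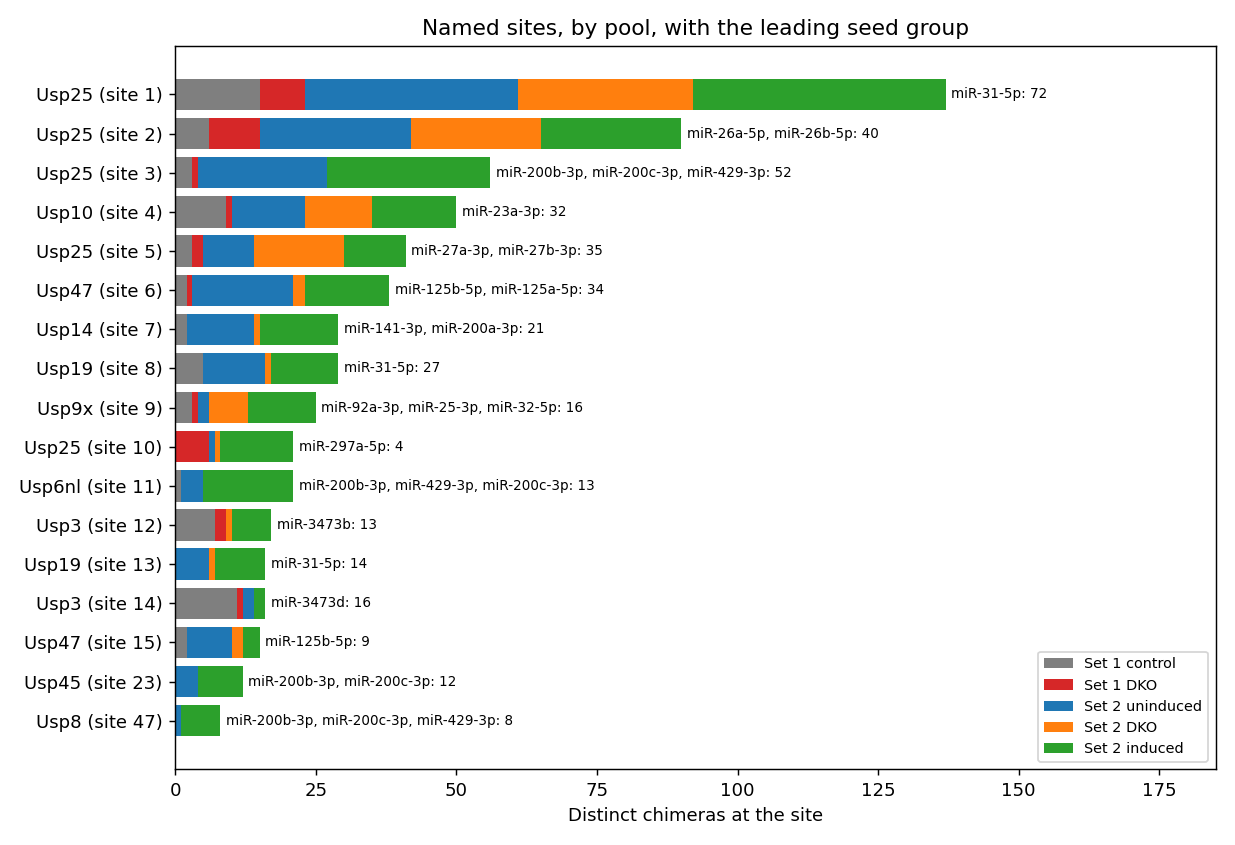
Distinct chimeras at the 15 deepest Usp sites and at the Usp45 and Usp8 sites among those with most miR-200 chimeras, stacked by pool. The text at each bar names the leading miRNAs of 1 seed and their number of chimeras. At the Usp10 site miR-23b-3p is counted apart from miR-23a-3p, since it had no sequence here. The miR-200 sites of Usp25 (56 chimeras), Usp6nl (21), Usp45 (12) and Usp8 (8) have no set 2 DKO segment, and the Usp14 site (29) has 1 such chimera. Few chimeras of the miR-200 seeds remained in that pool at all.

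Gene by gene, the comparisons asked which Usp transcripts were bound more or less after loss or induction of miR-200. A gene was compared where the 2 pools together held at least 20 reads, which left 13, 28 and 33 of the 56 genes in set 1, set 2 DKO and induction. In set 1, 2 genes were at least 2-fold higher in the DKO pool and 6 at least 2-fold lower, where 8.26% and 17.6% of 2132 protein-coding genes compared were so, 25.8% in all. In set 2, 1 was higher and 2 lower, where 9.57% and 11.2% of 4379 genes were, 20.8% in all. On induction 0 were higher and 1 lower, where 3.11% and 2.13% of 5212 genes were, 5.24% in all. The median ratios of the Usp genes were 0.665, 1.13 and 1.15, beside 0.886, 1.02 and 1.03 for all genes compared. By the interval alone, 1 Usp gene was higher and 3 lower in set 1, where 8.02% and 9.15% of all genes compared were (17.2% in all). In set 2 DKO 3 were higher and 2 lower, where 13.8% and 12.9% were (26.6% in all), and on induction 1 was higher and 2 lower, where 4.64% and 3.91% were (8.56% in all). The intervals are not adjusted for the number of genes.

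In set 1, 4 genes differed at least 2-fold with an interval that excluded 1. Usp25 went from 48 reads of 161692 to 36 of 48662, a ratio of 2.49 (1.57 to 3.92), and stayed between 2.26 and 2.72 under the alternatives for counting, strand and totals. In set 2 the same comparison was 1.09 (0.861 to 1.38). Usp9x was at 0.138 (0.0163 to 0.528), on 2 reads, and 12 of its 48 control reads were of miR-6380. Usp3 was at 0.332 (0.117 to 0.767), at 0.218 (0.0251 to 0.868) without the 7 miRNAs of set 1, and at 0.457 (0.139 to 1.17) with each position counted 1 time. The 7 do not include miR-3473d, which had 15 of the 60 control reads of Usp3 and 1 in the DKO pool. Usp10 was at 0.447 (0.171 to 0.989), and its interval includes 1 under 4 alternatives, whose ratios run from 0.357 (without the 7 miRNAs) to 0.530 (0.201 to 1.19, each position counted 1 time). Usp31 (0.277), Usp47 (0.369), Usp24 (0.498) and Usp46 (2.08) passed 2-fold with intervals that include 1.

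In set 2 the gene with a 2-fold ratio and an interval excluding 1 was Usp19, at 0.432 (0.214 to 0.815) on 13 reads against 45, and between 0.385 and 0.475 under the alternatives. Usp22, the deubiquitinase of the SAGA coactivator, was at 0.472 and Usp48 at 2.09, each with an interval that includes 1. Below 2-fold, Usp10 was at 1.62 (1.07 to 2.47), Usp7 at 1.79 (1.07 to 3.02), Usp46 at 1.97 (1.04 to 3.78) and Usp47 at 0.704 (0.516 to 0.953). With each position counted 1 time the intervals of Usp10 (1.53, 0.973 to 2.42) and Usp47 (0.767, 0.557 to 1.05) include 1. Usp10 was thus lower than control in set 1 and higher in set 2.

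On induction Usp12 was at 0.500 (0.259 to 0.941), on 18 reads against 27, and just inside 2-fold, at 0.509, with each position counted 1 time. Usp47 was at 0.706 (0.551 to 0.904), on 130 reads against 138, and Usp15 at 1.58 (1.06 to 2.37). Usp25 was at 0.909 (0.740 to 1.12) and Usp6nl at 1.15 (0.895 to 1.49). Usp14, the other gene with most miR-200 reads, was at 1.15 (0.730 to 1.82). For these 3 genes the set 2 DKO ratios were 1.09 (Usp25), 0.892 (Usp6nl) and 1.10 (Usp14), with intervals that include 1.

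**Figure D5:**
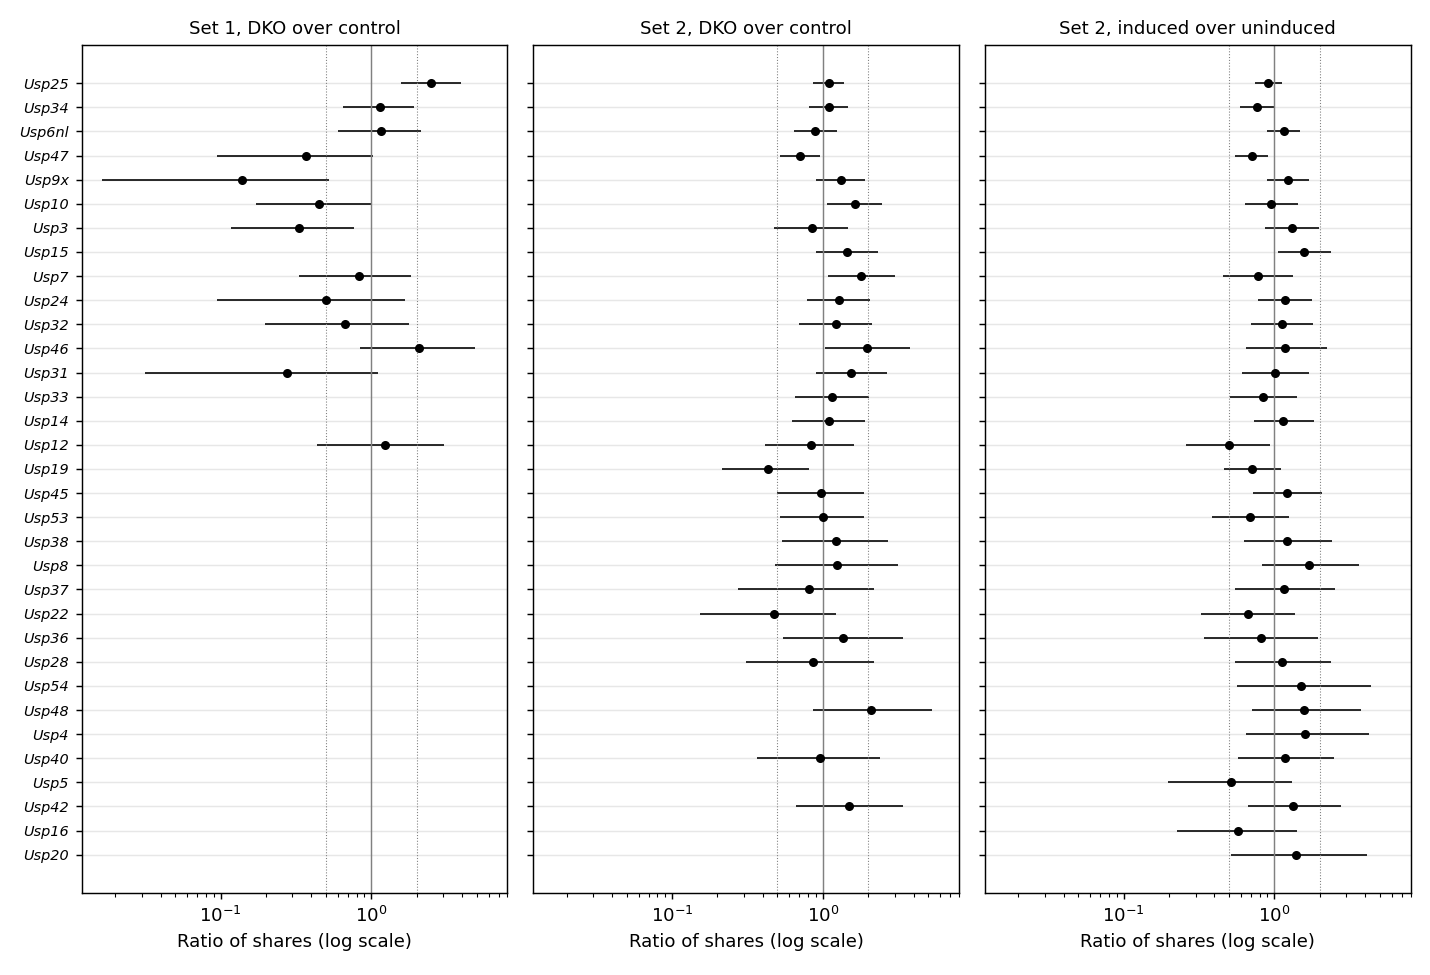
Ratio of each Usp gene's share of reads between 2 pools, on a log scale, with 95% intervals for counting error, for genes with at least 20 reads over the 2 pools; the solid line marks 1 and the dotted lines 2-fold. The set 1 panel holds 13 genes with wide intervals, the set 2 DKO panel 28 and the induction panel 33, where no gene lies above 2-fold.

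Other genes of the ubiquitin pathway gave a comparison. Of 34 deubiquitinases of other families, 31 had reads, led by Otud4 (44, 18, 104, 125 and 179 reads) and Mindy3 (33, 8, 110, 74 and 226). Their summed share was 1.10 (0.856 to 1.41), 1.07 (0.957 to 1.20) and 1.19 (1.08 to 1.30) times control in set 1, set 2 DKO and induction. At least 2-fold higher and lower were 1 and 2 of 7, 1 and 3 of 17, and 1 and 0 of 21 genes compared. The 37 ubiquitin-conjugating enzymes of the Ube2 family, 31 with reads, stood at 0.710 (0.598 to 0.839), 1.04 (0.938 to 1.15) and 1.13 (1.04 to 1.23). At least 2-fold higher and lower were 1 and 6 of 14, 1 and 1 of 21, and 1 and 0 of 27. Of all protein-coding genes compared, 8.26 and 17.6% (set 1), 9.57 and 11.2% (set 2 DKO) and 3.11 and 2.13% (induction) were so. On induction both lists had intervals above 1 while that of the Usp genes included 1; the difference between lists was not tested.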

How the data were processed

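Crosslinking used UV at 254 nm (300 mJ/cm2), per the labels' protocols, before Argonaute 2 precipitation and ligation. The submitters' processing notes name cutadapt, Novoalign, bedtools and mm10; versions are not given in the sources used here. The deposited files, 1 for each group of libraries (18 in all), hold another kind of unit than counts: each entry the authors deposited is the mm10 position of 1 chimeric read with strand, barcode and miRNA name. Reads were counted from these entries, with coordinates from 1, in Python 3.11.15 with pandas 2.3.3, numpy 2.4.6 and scipy 1.17.1; figures used matplotlib 3.10.9. Shares have exact Clopper-Pearson intervals and ratios conditional exact ones. Coverage of the ratio intervals was tested on simulated Poisson counts, the model they assume, so it cannot show how they hold for reads merged over libraries. Gene strand was known for 43 of the 56 genes. Reads also in another protein-coding gene (125) were left out, as were 3 noncoding genes with Usp symbols.

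Named are the 20 Usp genes with the highest mean share, those at least 2-fold apart with an interval excluding 1, the 10 leading miRNAs and the 5 miR-200 members, the 15 deepest sites and the 5 with most miR-200 chimeras; others were chosen after their values were seen. The genes, lists and rules were chosen with earlier results of these data known. Had libraries been named, an exact permutation test over them was planned.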

Additional observations from a re-analysis of the deposited data

Results flagged for a closer look

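Usp10 differed in direction between the sets. Its DKO share over control was 0.447 (0.171 to 0.989) in set 1, on 7 reads against 52. In set 2 it was 1.62 (1.07 to 2.47), on 51 against 47. With each position counted 1 time both intervals include 1. The difference between the sets was not tested, since each pool is 1 sample. Some reads of Usp genes lay in another protein-coding gene too and entered no count above: 38 in Usp49, which has no other reads, 33 in Usp37 and 30 in Usp34. By pool there were 11, 1, 36, 31 and 46 such reads over all Usp genes.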

How the results depend on the processing

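Of 65 recomputed values for whole-group results, 54 stayed within the counting interval of the value given (for counts, within 1.5 times), as did 479 of 479 for named genes and sites. This is a weak criterion, because the alternatives reuse most of the same reads and the intervals of shallow genes are wide. The set 1 family ratio could only stay at 0, since its DKO pool held no family read on Usp genes. The intervals of Usp3, Usp10 and Usp47 that then include 1 are given beside those genes. Usp share ratios ranged over 0.871 to 1.11 in set 1, 1.05 to 1.09 in set 2 and 0.964 to 0.994 for induction, and the family ratio on induction over 1.12 to 1.29. Sites with at least 5 chimeras numbered 106 to 114 in place of 117. Usp genes 2-fold apart in set 1, set 2 DKO and induction numbered 8 of 13, 3 of 28 and 1 of 33 compared. Of all protein-coding genes compared, 25.8, 20.8 and 5.24% were so. By the interval alone 4, 5 and 3 of the same Usp genes differed, beside 17.2, 26.6 and 8.56% of all genes compared. With a minimum of 10 reads, 13 of 26, 8 of 35 and 2 of 37 Usp genes were 2-fold apart. With 50 reads, 4 of 6, 1 of 15 and 0 of 17 were. The share of all protein-coding genes at either of these minimums was not computed, so these counts cannot be set against a general rate. With each position counted 1 time, 0 genes were 2-fold apart on induction. Without reads shared within a set the family's set 2 DKO ratio was 0. No paired analysis was possible because the libraries, although numbered in the labels, are pooled by group and the deposited reads carry no replicate number. Depth limits set 1 most, where 202 Usp reads make up the DKO pool.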

Other observations

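Some less abundant Usp genes, chosen after their values were seen, had a leading miRNA of their own. miR-130a-3p made 8 of 25 chimeras on Usp20, and miR-31-5p made 7 of 19 on the imprinted gene Usp29 and 6 of 16 on Usp21. Usp29 had 1, 0, 11, 0 and 7 reads and Usp21 had 2, 0, 7, 0 and 7, so that neither had a read in a DKO pool. In set 1 the control reads were too few to show a loss, with upper bounds of the DKO ratio at 130 (Usp29) and 17.7 (Usp21). In set 2 the upper bounds were 0.596 for Usp29 and 1.04 for Usp21, the latter including 1. The miR-26 seed made up 0.734, 4.46, 2.19, 3.59 and 2.03% of Usp reads, against 0.905, 1.01, 1.59, 1.86 and 1.62% in other protein-coding genes. Without Usp25 the Usp values were 0.474, 3.01, 1.54, 2.52 and 0.820%. The seed of let-7a, let-7e, let-7f and let-7g was less frequent on Usp genes than elsewhere in all 5 pools, at 2.94, 1.98, 4.15, 7.07 and 5.32% against 3.49, 4.66, 6.46, 7.18 and 6.24%, and the interval of the ratio excluded 1 in the uninduced pool alone (0.642, 0.481 to 0.841). Without Usp25 the Usp values were 2.53, 1.81, 4.53, 7.69 and 5.81%, so that the set 2 DKO pool then lay above other genes. No test between pools was made of these values.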
